A study of Mus musculus with 15 samples.

Results

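A set of 41 genes of mitosis and the G2/M transition was followed in 2D cultures of mouse duodenal epithelium after 6 h with 1 of 4 undigested protein sources or with medium alone. Members were matched by gene symbol to array probe sets that carry that symbol and no other, and the brightest such probe set was kept, which measured 38 of the 41 among 18820 genes in all. Nusap1, a microtubule bundler of the spindle, and Ube2c, a ubiquitin-conjugating enzyme of mitotic exit, share their probe sets with Oip5 and Tnnc2, and Ccnb1, the cyclin partner of Cdk1, was not analysed here. The sources were casein (CAS), soybean meal (SBM), plasma protein that had been spray dried (SDPP) and the insect yellow meal worm (YMW), each at 4% w/v per the labels, and cells in DMEM served as the medium control (MC), with 3 arrays per group. All cells came from the duodenum of 9-week-old female C57BL/6J mice. Per the methods, organoids were made from 3 mice, dissociated to single cells and grown to confluence in medium with EGF, Noggin, WNT3A and R-spondin, factors that keep crypt cells dividing. The methods also express the dose as a far lower protein mass per volume, which was not resolved here. They state that the sources were added in this medium and that MC was DMEM-F12 only, so between each source and MC the protein and these factors cannot be told apart as far as the methods go. A sample was pooled from 3 wells, and its replicate number is not tied to a mouse in the labels, so p-values measure the spread between these samples. Values are log2 of RMA intensities, a scale on which 1 unit is a doubling. Levels of different genes are not set against each other, since probes differ in brightness.

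To divide, a cell that has copied its DNA activates Cdk1 through its cyclins and phosphatases, condenses its chromosomes, builds a bipolar spindle and attaches it to the kinetochores, the protein plates on centromeres. The spindle checkpoint holds the cell until all kinetochores are attached, after which the anaphase-promoting complex destroys cyclin B and securin, sisters separate, and a contractile ring cuts the cell apart. RNA of these genes rises late in the cell cycle, driven by the MuvB complex with B-Myb and FoxM1 and by NF-Y, and falls when cells leave the cycle. In the small intestine they are therefore transcribed in stem and transit-amplifying cells of the crypt and not in the enterocytes of the villus.

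Pearson's r between arrays of a group over all genes was between 0.993 and 0.996 in each source, and between 0.978 and 0.996 in MC. The closest MC arrays were thus as alike as those of a source, and the farthest were less so. All 38 measured members lay above background, set at a log2 intensity of 3.91 from 1155 olfactory and vomeronasal receptor genes. So did all 12 measured stem cell and all 17 measured enterocyte markers. The same held for 4 of 5 tuft cell, 7 of 9 fibroblast and muscle, 4 of 7 immune and 0 of 4 endothelial markers. In MC 1 (the number is the replicate) the members stood near the treated arrays, and in MC 2 and MC 3 well under them. Every comparison with MC is therefore also given with single MC arrays left out, and the comparisons among sources also without any MC array.

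**Figure D1:**
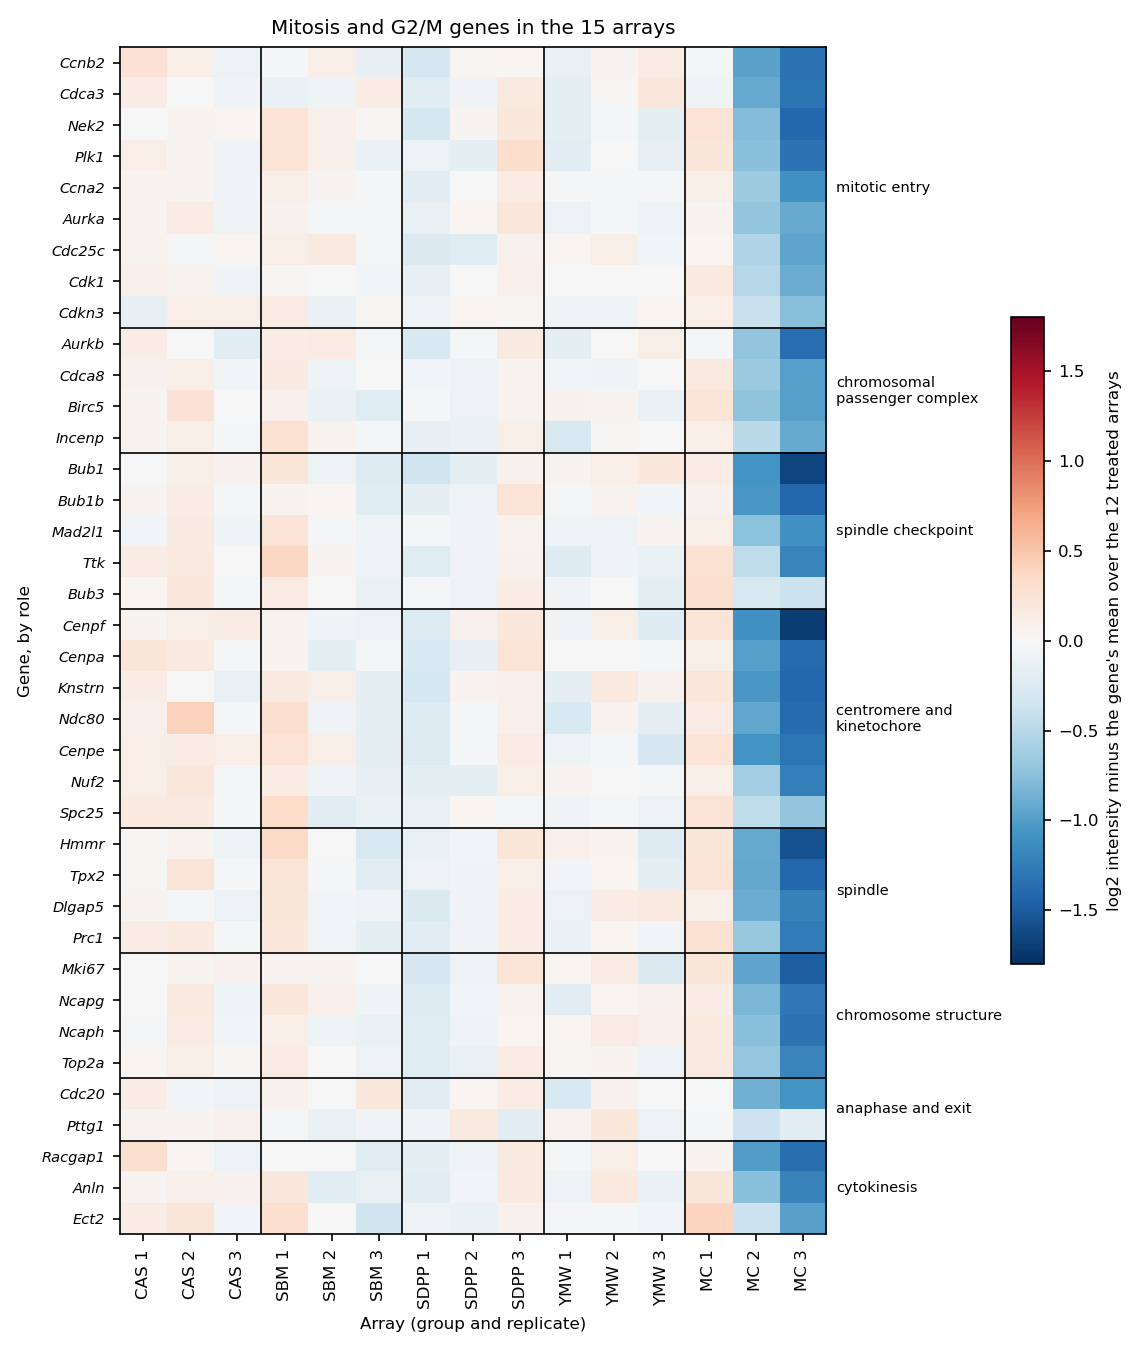
Heat map of the 38 measured mitosis and G2/M genes (rows, grouped by role) in the 15 arrays (columns). Colour is the log2 intensity minus the gene's mean over the 12 treated arrays, blue for lower and red for higher. The columns of MC 2 and MC 3 are blue throughout, with medians of -0.75 and -1.25 over the genes, and that of MC 1 is pale, with a median of 0.15.

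Set against MC as a group, the members were higher with every source. The difference was positive for 38 of 38 members in each of the 4 comparisons, with a median log2 difference of 0.65 for both CAS and SBM and of 0.57 for both SDPP and YMW, while the median of all genes was within 0.02 of 0. A member was called where limma gave an unadjusted p under 0.05 and a change of at least 1.5-fold, the threshold of the study's methods. By that rule 25 members were higher with CAS, against 1.82% of all genes, 22 with SBM, against 1.37%, 18 with SDPP, against 1.13%, and 17 with YMW, against 1.74%, and 0 were lower with any source. With no limit on the fold change, p was under 0.05 and the difference positive for 35 members with CAS (7.59% of all genes), 32 with SBM (7.43%), 27 with SDPP (6.37%) and 28 with YMW (9.93%). After Benjamini-Hochberg adjustment over all 18820 genes, limma called 0 members in each of the 4 comparisons, against 0.383% of all genes in the CAS comparison, 0.00531% in the SBM and in the YMW comparison and 0% in the SDPP comparison. The 4 comparisons share the MC arrays, so they are not 4 separate observations of a difference from MC. In bulk RNA, a difference in the number of dividing cells and one in the RNA per dividing cell cannot be told apart.

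Cenpf, Bub1 and Ndc80 led the CAS comparison, at 0.96 ± 0.32, 0.92 ± 0.30 and 0.89 ± 0.28 (log2 difference from MC ± SE, n = 3 arrays per group, limma adjusted p of 0.159, 0.15 and 0.137). With SBM the leading members were Bub1 at 0.83 ± 0.30, Cenpf at 0.82 ± 0.32 and Aurkb at 0.79 ± 0.23. With SDPP they were Cenpf at 0.86 ± 0.32, Bub1b at 0.79 ± 0.26 and Hmmr at 0.77 ± 0.31. With YMW they were Bub1 at 0.98 ± 0.30, Racgap1 at 0.80 ± 0.25 and Ccnb2 at 0.80 ± 0.23. The limma adjusted p of these SBM, SDPP and YMW differences lay between 0.12 and 0.377. The differences of all 38 ran between 0.20 and 0.96 with CAS, 0.13 and 0.83 with SBM, 0.13 and 0.86 with SDPP, and 0.05 and 0.98 with YMW.

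The mean of the 4 sources against MC gives the part that the comparisons have in common. Here 20 members were called higher, against 1.45% of all genes, and 35 had a positive difference with p under 0.05, against 11% of all genes. Cdca3, an F-box protein that helps to degrade the mitotic inhibitor Wee1, was the 1 member past an adjusted p of 0.05, against 0.632% of all genes, at 0.76 ± 0.18 (limma adjusted p = 0.0486). The members' differences had a median of 0.63 and ran between 0.13 and 0.86, with SEs between 0.09 and 0.25.

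Called members were found in each of the 8 roles. Among 9 measured genes of mitotic entry, 4 were called: Ccnb2, a B-type cyclin, at 0.78, Cdca3 at 0.76, Nek2, a centrosome kinase, at 0.65 and Plk1, the Polo-like kinase that acts from entry to cytokinesis, at 0.62. Ccna2 (cyclin A2) had 0.54, Aurka (the centrosomal Aurora kinase) 0.52, Cdc25c (a phosphatase that activates Cdk1) 0.48, Cdk1 itself 0.41 and Cdkn3 (a phosphatase that acts on Cdk) 0.35, all under 1.5-fold. Of the 4 genes of the chromosomal passenger complex, which corrects faulty attachments, Aurkb, its kinase, was called at 0.71, whereas the scaffold Incenp had 0.42, Cdca8 (borealin) 0.49 and Birc5 (survivin) 0.49.

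Of 5 spindle checkpoint genes, Bub1, a kinase, and Bub1b (BubR1), which inhibits the anaphase-promoting complex, were called, at 0.86 ± 0.24 and 0.80 ± 0.20, and Bub1 had the largest difference of all members, 1.82-fold. Mad2l1, which inhibits Cdc20, had 0.57 and the kinase gene Ttk (Mps1) 0.45. Bub3, which brings Bub1 and BubR1 to kinetochores, had the smallest difference, 0.13 ± 0.11, or 1.09-fold. The centromere and kinetochore genes had the highest median of the 8 roles, 0.73, and 5 of 7 were called: Cenpf, an outer kinetochore protein, at 0.86, Cenpa, the centromeric histone H3 variant, at 0.76, Knstrn (kinastrin), which helps to align chromosomes, at 0.75, Ndc80, which grips microtubules, at 0.73 and the kinesin gene Cenpe at 0.71. The partner genes of Ndc80 in the Ndc80 complex were not called, with Nuf2 at 0.58 and Spc25 at 0.30.

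Of 4 spindle genes, Hmmr, which encodes a hyaluronan receptor that also binds spindle microtubules, Tpx2, which activates Aurora A, and Dlgap5 (HURP), which stabilises kinetochore fibres, were called at 0.75, 0.70 and 0.66, and Prc1, which bundles the central spindle, had 0.55. Of 4 genes of chromosome structure, Mki67, which encodes the proliferation marker Ki-67 on the surface of mitotic chromosomes, was called at 0.74, as were the condensin subunit genes Ncapg and Ncaph at 0.66 and 0.64, and Top2a, which untangles sister DNA, had 0.58. Cdc20, the activator of the anaphase-promoting complex, was called at 0.64, and Pttg1 (securin), which that complex destroys, had 0.21. Of 3 cytokinesis genes, Racgap1, a part of centralspindlin, was called at 0.77, and Anln (anillin) and Ect2, which activates RhoA at the cleavage furrow, had 0.58 and 0.32. Medians of the other roles lay between 0.43 for anaphase and exit (2 genes) and 0.68 for the spindle (4 genes).

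The values of single arrays differed most within MC. Bub1 read 8.23, 8.35 and 8.31 in CAS, 8.45, 8.14 and 8.00 in SBM, 7.88, 8.07 and 8.32 in SDPP and 8.28, 8.35 and 8.43 in YMW, against 8.37, 7.16 and 6.58 in MC. MC 1 lay inside the range of the treated arrays and MC 2 and MC 3 under all of them. Cenpf, the member with the widest range in MC, read 7.61, 7.68 and 7.70 in CAS, 7.63, 7.50 and 7.47 in SBM, 7.32, 7.64 and 7.75 in SDPP and 7.50, 7.67 and 7.33 in YMW, against 7.80, 6.47 and 5.86 in MC. MC 1 was here higher than all 12 treated arrays. Aurkb read 9.28, 9.15 and 8.95 in CAS, 9.27, 9.28 and 9.12 in SBM, 8.87, 9.10 and 9.30 in SDPP and 8.99, 9.14 and 9.25 in YMW, against 9.10, 8.43 and 7.77 in MC.

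Tpx2 read 8.57, 8.79 and 8.54 in CAS, 8.78, 8.54 and 8.37 in SBM, 8.45, 8.47 and 8.68 in SDPP and 8.51, 8.59 and 8.40 in YMW, against 8.80, 7.64 and 7.14 in MC, and MC 1 was again the highest of the 15. Top2a read 9.90, 9.97 and 9.88 in CAS, 10.00, 9.86 and 9.75 in SBM, 9.64, 9.73 and 10.01 in SDPP and 9.88, 9.91 and 9.76 in YMW, against 10.02, 9.15 and 8.66 in MC. Mki67 read 9.89, 9.95 and 9.98 in CAS, 9.95, 9.95 and 9.90 in SBM, 9.60, 9.81 and 10.15 in SDPP and 9.94, 10.06 and 9.64 in YMW, against 10.13, 8.95 and 8.41 in MC. In both, MC 2 and MC 3 lay under the lowest treated array, SDPP 1, and MC 1 at the upper end of the treated range or above it. Cdc20 read 8.40, 8.22 and 8.16 in CAS, 8.35, 8.26 and 8.45 in SBM, 8.06, 8.30 and 8.39 in SDPP and 7.98, 8.35 and 8.25 in YMW, against 8.27, 7.41 and 7.19 in MC.

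Anln read 8.76, 8.80 and 8.79 in CAS, 8.92, 8.51 and 8.57 in SBM, 8.52, 8.66 and 8.88 in SDPP and 8.62, 8.89 and 8.59 in YMW, against 8.92, 7.96 and 7.51 in MC. Bub3, the member that differed least, read 9.14, 9.31 and 9.10 in CAS, 9.25, 9.11 and 8.98 in SBM, 9.07, 9.02 and 9.25 in SDPP and 9.05, 9.12 and 8.94 in YMW, against 9.40, 8.83 and 8.72 in MC. MC 1 was again the highest and MC 2 and MC 3 were the lowest of the 15 arrays. Pttg1, dim at this probe set, read 5.25, 5.25 and 5.27 in CAS, 5.17, 5.06 and 5.13 in SBM, 5.14, 5.37 and 4.99 in SDPP and 5.26, 5.39 and 5.10 in YMW, against 5.17, 4.82 and 4.99 in MC, and MC 3 was under the lowest treated array only in the third decimal.

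MC 2 and MC 3 were both lower than each of the 12 treated arrays in 38 of 38 members, a pattern that 13.4% of all genes and 18.9% of the genes above background showed. MC 3 was the lowest of the 15 arrays in 37 members (17.5% of all genes) and MC 2 in the other one, Pttg1 (7.84%). MC 1 was within the treated range in 26 members (84.2% of all genes) and higher than all 12 treated arrays in 12 (9.83%). It was lower than all 12 in 0 (5.95%). It was above the treated mean in 34 members (54.1% of all genes), and the exceptions were Aurkb, Ccnb2, Cdca3 and Pttg1. Set against the treated mean, the members' median was 0.15 in MC 1, -0.75 in MC 2 and -1.25 in MC 3.

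**Figure D2:**
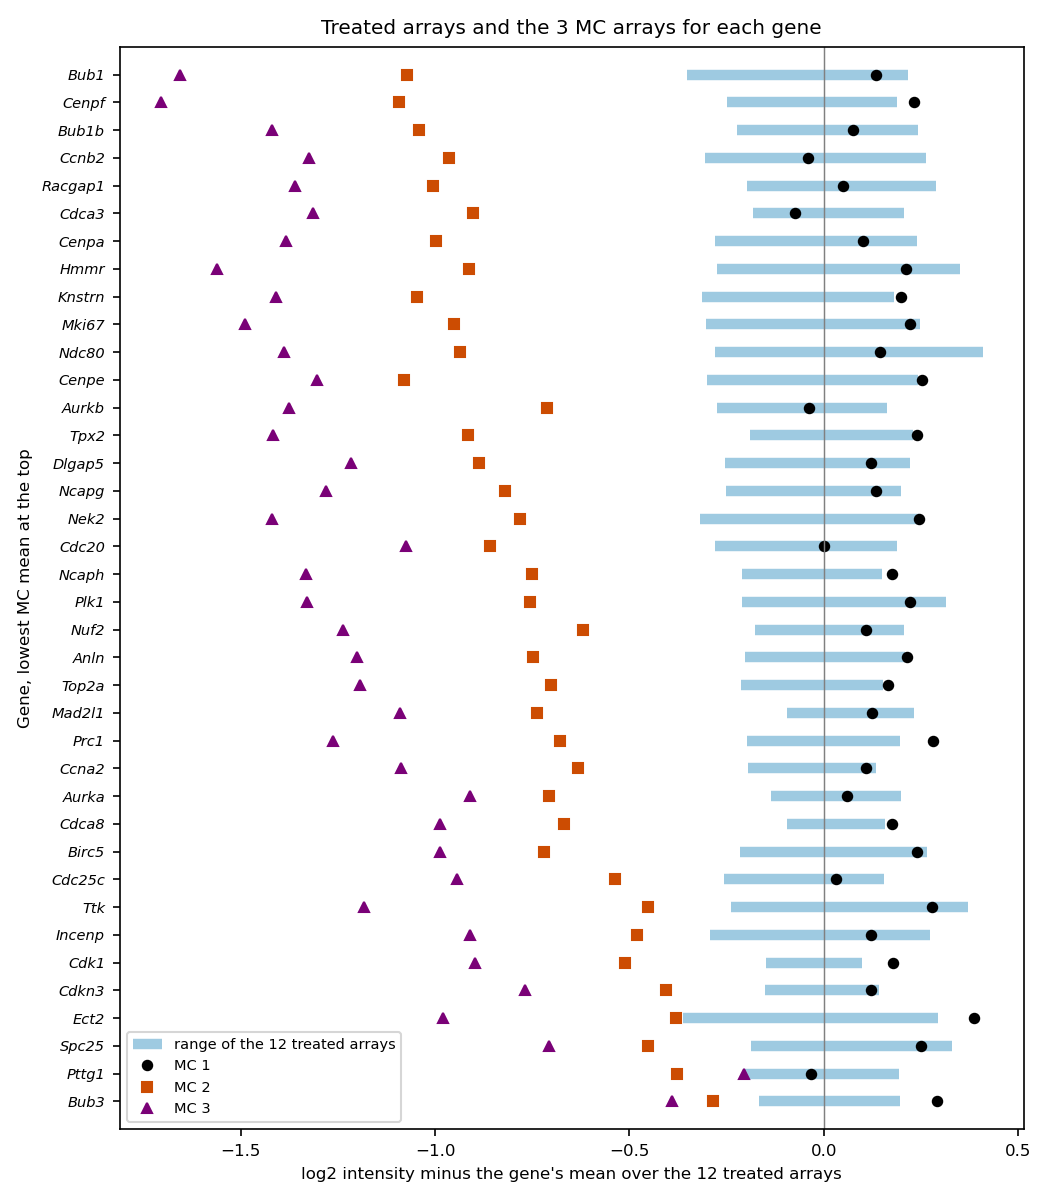
Log2 intensity minus the gene's mean over the 12 treated arrays (horizontal axis) for each of the 38 genes (vertical axis, lowest MC mean at the top). Bars span the 12 treated arrays and points are MC 1 (circle), MC 2 (square) and MC 3 (triangle). MC 2 and MC 3 lie left of the bar in all 38 genes, and MC 1 lies within it in 26 and right of it in 12.

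Within MC the members were 2.16-fold higher in MC 1 than in the mean of MC 2 and MC 3 by the median, with 1.20-fold for Pttg1 and 3.10-fold for Cenpf at the ends. By role, the median of this gap was 1.33 for spindle genes and 1.31 for centromere and kinetochore genes on the log2 scale, against 0.61 for anaphase and exit. The SD of the members had a median of 0.15 within the sources and of 0.69 in MC, where it was larger in 38 of 38 members (53.4% of all genes). Over all genes the medians were 0.13 and 0.14. The fit shares 1 variance per gene among the 5 groups, so that for these members the spread of the sources narrows the errors of the comparisons with MC, and the spread of MC widens those among the sources.

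No member kept the treated and MC arrays apart. All 12 treated arrays were above all 3 MC arrays in 0 members, against 0.739% of all genes. The 3 CAS arrays were all above the 3 MC arrays in 2 members, Cdca3 and Pttg1 (5.65% of all genes), the 3 SBM arrays in 1, Aurkb (4.97%), the SDPP arrays in 0 (4.87%) and the YMW arrays in 0 (7.42%).

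The counts turned on which MC arrays were used. Without MC 1, limma called 36 members higher with CAS (4.59% of all genes), 36 with SBM (4.5%), 35 with SDPP (3.89%) and 34 with YMW (4.93%), with medians of 1.04, 1.03, 0.96 and 0.95. At an adjusted p under 0.05 there were then 37, 37, 37 and 36 members, beside 3685, 4018, 3083 and 4013 of all 18820 genes in either direction. Without MC 3 the call rule gave 1, 0, 0 and 1 members (0.712%, 0.329%, 0.308% and 0.547% of all genes), with medians of 0.35, 0.34, 0.27 and 0.27, and without MC 2 it gave 11, 6, 5 and 8 (1.12%, 0.685%, 0.563% and 1.00%). With MC 1 as the only control, 0 members were called and the medians were -0.12, -0.15, -0.20 and -0.17, so the sign turned. The mean of the 4 sources had 35 members called higher without MC 1 (4.36% of all genes). Without MC 2 there were 14 (0.877%). Without MC 3 there were 0 (0.409%), and Ccnb2 had the largest difference, 0.50. Single treated arrays moved the counts too. In the SDPP comparison 4 members were called higher without SDPP 3 (0.595% of all genes), fewer than without MC 2. There were 11 without SDPP 2 (0.951%). In the SBM comparison 12 were called without SBM 1 (1.04% of all genes), and in the YMW comparison 10 without YMW 2 (1.41%). The call of Cdca3 at an adjusted p under 0.05 was lost without any 1 of the 12 treated arrays, and also without MC 2 or without MC 3.

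**Figure D3:**
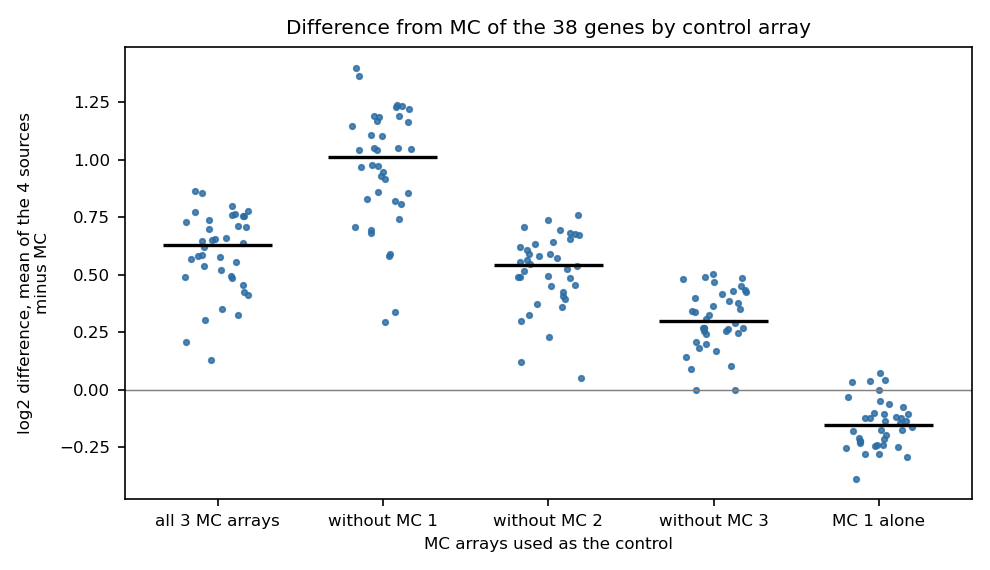
Log2 difference of the mean of the 4 sources from MC (vertical axis) for the 38 genes (points) with 5 choices of MC arrays (horizontal axis), black lines being medians. The medians are 0.63 with all MC arrays, 1.01 without MC 1, 0.54 without MC 2, 0.30 without MC 3 and -0.15 with MC 1 alone.

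Markers of differentiation moved with the members over the MC arrays. The median log2 intensity of the members was 7.98 to 8.37 in the 12 treated arrays and 8.37, 7.38 and 7.02 in MC 1, MC 2 and MC 3. That of 17 enterocyte markers was 8.11 to 10.50 in the treated arrays and 8.36, 10.79 and 10.87 in the MC arrays, the opposite order. Both MC 2 and MC 3 were above all treated arrays in 14 of these 17, a pattern not counted over all genes. MC 1 was within the treated range in all 17, as in 84.2% of all genes. The median of 12 crypt base stem cell markers was 8.67 to 9.32 in the treated arrays and 9.17, 8.505 and 8.05 in the MC arrays. Both MC 2 and MC 3 were below all treated arrays in 10 of the 12, against 13.4% of all genes. The part of these markers in the difference of the members from MC was not tested.

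**Figure D4:**
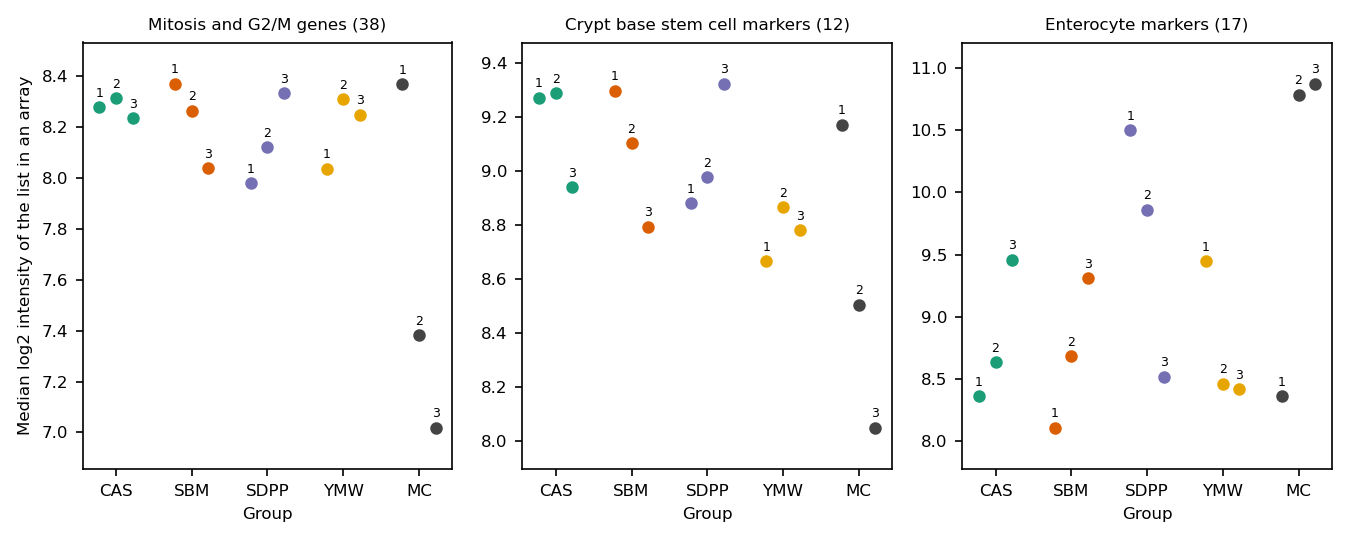
Median log2 intensity of the mitosis and G2/M genes, of crypt base stem cell markers and of enterocyte markers (vertical axes, each with its own scale) in each array, by group (horizontal axes). Numbers beside the points are replicates. MC 2 and MC 3 are lowest in the mitosis and stem cell panels and highest in the enterocyte panel, and MC 1 lies in the treated range or, for the mitosis genes, at its top.

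By marker, limma called 8 of the 17 enterocyte genes lower and 0 higher in the mean of the 4 sources against MC, with a median of -0.99, beside 1.9% of all genes called lower and 1.45% called higher. They included Slc2a2 (the basolateral glucose transporter) at -1.71 ± 0.74, Rbp2 (a retinol-binding protein) at -1.37 ± 0.50, Apoa4 (an apolipoprotein) at -1.26 ± 0.48 and the sodium-glucose transporter gene Slc5a1 at -1.23 ± 0.38. Of 12 stem cell markers 3 were called higher, Olfm4 (olfactomedin 4) at 1.504 ± 0.403, Msi1 (an RNA-binding protein) at 1.17 ± 0.30 and Lgr5 (a receptor for R-spondins) at 0.84 ± 0.23. Without MC 1 these counts were 15 enterocyte markers lower and 6 stem cell markers higher, and without MC 3 they were 2 and 2. Of all genes 4.31% were then called lower and 4.36% higher without MC 1, and 0.329% lower and 0.409% higher without MC 3. Olfm4, the stem cell marker with the largest difference, read 11.23 to 11.89 in the treated arrays, against 11.68, 10.06 and 8.53 in MC. Of 7 Paneth cell markers, Nupr1 was called higher at 0.64 ± 0.21, of 7 goblet markers, Zg16 and Clca1 were called lower at -0.95 ± 0.30 and -0.71 ± 0.15, and of 10 enteroendocrine markers, Tac1 was called higher at 1.21 ± 0.27. None was called among 5 tuft cell, 9 fibroblast and muscle, 7 immune and 4 endothelial markers, whose largest differences were those of Trpm5 (-0.53), Vim (0.41), Lyz2 (0.15) and Kdr (0.12). Without MC 1 the Paneth list had 3 genes higher, the goblet list 1 higher and 2 lower, the enteroendocrine list 1 higher and 3 lower, the tuft list 1 lower and the fibroblast and muscle list 1 higher, and without MC 3 only the enteroendocrine list kept a call, 1 higher.

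Lists of other genes of cell division, which are not members, differed in how far they shared the pattern. The calls in these lists stand beside 1.45% of all genes called higher and 1.9% called lower in the mean of the 4 sources against MC. Of 29 further measured spindle and cytokinesis genes, 13 were called higher in the mean of the 4 sources against MC and 0 lower, with a median of 0.52, led by Cep55 (abscission) at 0.77 ± 0.25, Tacc3 (spindle microtubules) at 0.76 ± 0.19, Cit (citron kinase) at 0.74 ± 0.22 and Gtse1 (a microtubule-binding protein) at 0.72 ± 0.21. In 29 of 29 both MC 2 and MC 3 were below all treated arrays, against 13.4% of all genes. The same held for 19 of 27 further kinetochore and checkpoint genes, 11 of 16 condensin and cohesin genes, 9 of 12 entry kinases and phosphatases, 8 of 16 genes of the anaphase-promoting complex, 11 of 30 replication genes, 6 of 14 G1 genes and 8 of 22 regulators of G2/M promoters. Both MC arrays were above all treated arrays in 1 of the entry genes, 1 of the G1 genes and 3 of the regulators (not counted over all genes). Of 27 further kinetochore and checkpoint genes 4 were called higher, all of proteins of the kinetochore, Cenpw at 0.80 ± 0.23, Knl1 at 0.67 ± 0.21, Kntc1 at 0.65 ± 0.20 and Cenph at 0.64 ± 0.18, with a median of 0.38. Of 16 condensin and cohesin genes 2 were called higher, the condensin subunit gene Ncapd2 at 0.94 ± 0.25 and Espl1 (separase) at 0.62 ± 0.23, with a median of 0.29.

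Of 12 further kinases, phosphatases and Cdk partners of mitotic entry 3 were called higher, Cks1b (a Cdk-binding subunit) at 0.76 ± 0.20, Mastl (Greatwall kinase) at 0.76 ± 0.25 and the phosphatase gene Cdc25b at 0.61 ± 0.14. Cdc25a, the family member that also acts in S phase, had -0.36 ± 0.08 (limma adjusted p = 0.0416), under 1.5-fold, and is named after its values were seen. Subunits and regulators of the anaphase-promoting complex, which is present through much of the cycle, had a median of 0.17 with 0 of 16 called, and Fbxo5 (Emi1, its inhibitor) had the largest difference, 0.53 ± 0.14. Of 30 genes of the MCM complex and the replication fork 2 were called higher, Tk1 (thymidine kinase) at 0.64 ± 0.15 and Pole (a replicative polymerase) at 0.61 ± 0.20, with a median of 0.27. None of 14 genes of G1 cyclins, their kinases and CDK inhibitors was called. Cdkn2b (p15) had the largest difference of these, -0.58 ± 0.19.

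Without MC 1 the call rule gave 25 of 29 further spindle and cytokinesis genes, 16 of 27 kinetochore and checkpoint genes, 6 of 16 condensin and cohesin genes, 7 of 12 entry kinases and phosphatases, 3 of 16 genes of the anaphase-promoting complex and 8 of 30 replication genes higher, beside 4.36% of all genes. Without MC 3 it gave 0 of each, beside 0.409% of all genes. Of the 14 genes of G1 cyclins and CDK inhibitors it gave 2 higher and 1 lower without MC 1, and 0 without MC 3. The regulators that bind G2/M promoters were measured less completely, since Foxm1 and Rbbp4 were not analysed here. Of the 22 measured, 0 were called, with a median of 0.15 (2 higher and 1 lower without MC 1). Mybl1 (A-Myb) had the largest difference, 0.40 ± 0.19.

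Promoters of the members were searched for the elements known from G2/M genes, since the members had moved together over the arrays. RefSeq promoters (build GRCm38.p6), from 250 bases before the annotated start to 50 after it, were matched by symbol for 35 of the 41 members. Aurkb, Ccna2, Cdc25c, Dlgap5, Incenp and Tpx2 had no matched promoter and were not searched. The cell cycle homology region (CHR), to which the MuvB complex binds, was searched as TTTGAA or TTCGAA, and the NF-Y site as CCAAT, both on either strand, and a base could count for both elements. A CHR match was found in 25 of 35 members (71.4%), against 21.66% of 27025 genes with a promoter and 19.0% of the 14749 of them measured on the arrays. CCAAT was found in 26 of 35 (74.3%), against 41.1% and 41.9%, and at least 2 matches of it in 20 of 35 (57.1%), against 13.3% and 14.4%. Both elements were found in 23 of 35 (65.7%), against 8.61% and 7.74%. Much of this depended on the window: in the 250 bases before the start alone, CHR matches were left in 12 of 35 members (34.3%, against 19.6% and 17.2%), and those of the other members lay after the annotated start. A match is a description of these letters and not a measured binding site.

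The promoters of Top2a, Cdc20 and Mki67 are shown because both elements were found before the start. Among the 9 genes chosen to stand for the roles, they are the only 3 of those searched where this held. Aurkb and Tpx2 also stand for roles but had no promoter to search. Other members hold both as well, among them Bub3, the member that differed least from MC. Each run is the 250 bases before the start on the strand of the gene, 5′ to 3′, with matches of either element in capitals. Top2a lies on the minus strand at chr11:99024190-99024439, Cdc20 on the minus strand at chr4:118437344-118437593 and Mki67 on the minus strand at chr7:135716380-135716629. Matches of CCAAT on the other strand read ATTGG, and those of TTTGAA read TTCAAA.
Top2a: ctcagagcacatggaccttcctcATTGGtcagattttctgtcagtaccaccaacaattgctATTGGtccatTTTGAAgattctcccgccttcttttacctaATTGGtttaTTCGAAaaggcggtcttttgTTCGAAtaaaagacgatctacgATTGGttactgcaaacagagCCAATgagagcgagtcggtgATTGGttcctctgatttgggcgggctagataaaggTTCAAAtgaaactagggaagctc
Cdc20: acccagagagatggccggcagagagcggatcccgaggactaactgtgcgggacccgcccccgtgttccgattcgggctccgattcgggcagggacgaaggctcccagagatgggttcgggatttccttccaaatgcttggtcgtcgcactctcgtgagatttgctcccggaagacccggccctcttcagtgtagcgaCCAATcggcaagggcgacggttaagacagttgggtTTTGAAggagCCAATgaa
Mki67: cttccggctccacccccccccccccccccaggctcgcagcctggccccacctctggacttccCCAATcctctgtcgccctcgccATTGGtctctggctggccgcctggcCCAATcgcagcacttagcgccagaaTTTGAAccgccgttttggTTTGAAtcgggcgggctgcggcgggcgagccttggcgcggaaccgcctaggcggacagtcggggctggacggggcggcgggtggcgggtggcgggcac
The Top2a run holds several matches of each element, Cdc20 has a TTTGAA between a pair of CCAAT close to the start, and Mki67 has its TTTGAA matches downstream of its CCAAT and ATTGG matches.

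Among the 4 sources themselves no difference was detected in these genes. In the 6 pairs of sources, 0 of 38 members were called in either direction, against 0.276% of all genes for CAS against SBM, 0.175% for CAS against SDPP, 0.244% for CAS against YMW, 0.0372% for SBM against SDPP, 0.138% for SBM against YMW and 0.0531% for SDPP against YMW. An F test of any difference among the sources had p under 0.05 in 0 members, against 4.56% of all genes, and the lowest F test p was that of Pttg1. The largest differences were 0.19 for Birc5 in CAS against SBM, 0.21 for Ndc80 in CAS against SDPP, 0.29 for Ndc80 in CAS against YMW, 0.22 for Cdc25c in SBM against SDPP, 0.26 for Ttk in SBM against YMW and -0.26 for Bub1 in SDPP against YMW. Their 95% intervals were wide, and over all members and pairs they reached -0.91 and 0.89, so these tests do not show that the sources acted alike.

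A fit to the 12 treated arrays alone, added after the spread of MC had been seen, narrowed these intervals. They then reached -0.52 and 0.60, and the F test still had p under 0.05 in 0 members (6.17% of all genes). Single pairs had an unadjusted p under 0.05 in 0 members for CAS against SBM (6.99% of all genes), 0 for CAS against SDPP (5.09%), 1 for CAS against YMW (7.77%), 1 for SBM against SDPP (4.39%), 2 for SBM against YMW (6.5%) and 1 for SDPP against YMW (4.96%). None of them reached 1.5-fold or an adjusted p under 0.05. Those with the lowest p in these pairs were Cenpe at 0.26 ± 0.12 in CAS against YMW, Cdc25c at 0.22 ± 0.10 in SBM against SDPP, Ttk at 0.26 ± 0.12 in SBM against YMW and Bub1 at -0.26 ± 0.12 in SDPP against YMW (limma adjusted p of 0.621, 0.985, 0.758 and 0.958).

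The CAS mean was the highest of the 4 in 22 of 38 members (23.2% of all genes) and the lowest in 0 (27.9%). The YMW mean was the lowest in 18 (20.4% of all genes) and the SDPP mean in 15 (20.75%). Median differences were 0.04 for CAS against SBM, 0.09 for CAS against SDPP and 0.07 for CAS against YMW on the log2 scale, and these medians were not tested. CAS was above SBM in 25 of 38 members, above SDPP in 37 and above YMW in 31, and the members of an array are not independent of each other. SDPP 1 was under the treated mean in 38 of 38 members (54.1% of all genes), with a median of -0.19 against it. It was the lowest treated array in 19 (9.95% of all genes). SDPP 3 had a median of 0.12 and was below the treated mean in 2 (49.55% of all genes). SBM 1 had a median of 0.14 and was the highest treated array in 15 (11.37%). The SD of the members within a source had a median of 0.18 in SDPP, 0.14 in SBM, 0.10 in CAS and 0.08 in YMW.

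**Figure D5:**
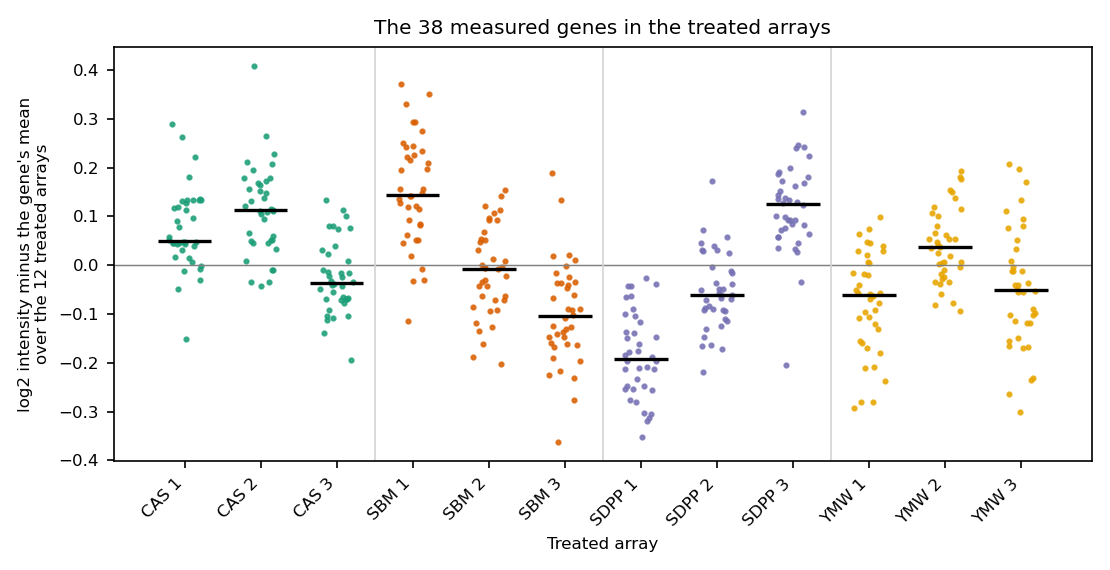
Log2 intensity minus the gene's mean over the 12 treated arrays (vertical axis) for the 38 genes (points) in each treated array (horizontal axis), black lines being medians. The medians run between -0.19 in SDPP 1 and 0.14 in SBM 1, and both the lowest and one of the highest arrays are of SDPP.

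Enterocyte markers were at opposite ends in the same arrays. Their median log2 intensity was 10.50 in SDPP 1, the highest of the treated arrays, 9.86 in SDPP 2 and 8.52 in SDPP 3, and 8.11 in SBM 1, the lowest, 8.69 in SBM 2 and 9.31 in SBM 3. The members' medians in these arrays were 7.98, 8.12 and 8.33 in SDPP and 8.37, 8.26 and 8.04 in SBM. In YMW 1, YMW 2 and YMW 3 they were 8.04, 8.31 and 8.25, beside 9.45, 8.46 and 8.42 for the enterocyte markers, and in CAS 1, CAS 2 and CAS 3 they were 8.28, 8.31 and 8.23, beside 8.36, 8.63 and 9.46. The lowest array of each source in the members was thus the highest in the enterocyte markers. For YMW this rested on a small margin when each gene was set against its treated mean. The members' median was then -0.062 in YMW 1 and -0.052 in YMW 3. In each, 27 of 38 members were below the treated mean (49.01% and 45.02% of all genes). The part of the enterocyte markers in the differences between the arrays was not tested.

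A few members had more than 1 probe set or an uncertain one. Of 2 probe sets of Mad2l1, the kept one had 0.57 and the other 0.37 in the mean of the treated arrays minus MC. The further sets of Top2a (2) and Prc1 (1) read near background, with log2 means under 3.91. Anln has a further probe set shared with 9530077C05Rik, which was not used.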

How the data were processed

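RNA of 15 samples was hybridised to Affymetrix mouse gene 1.1 ST arrays. The deposited intensities were made by the authors with RMA (background correction, quantile normalization and probe summary; version not given in the sources used here) and run on a linear scale between 3.02 and 10739. RMA assumes alike distributions, so a shift shared by most genes would not be seen. They were taken to log2 here. Of 35556 probe sets, 21218 carry 1 gene symbol, 1881 several and 12457 none, and the brightest probe set was kept for each of 18820 genes, 18805 of which are in the reference table. The members and all lists were chosen with earlier results of these data known.

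Group means of all 15 arrays were fitted in 1 model with limma 3.58.1 (R 4.3.3), with empirical Bayes moderation on an intensity trend, as in the study's methods, and p-values adjusted by Benjamini-Hochberg over all genes. The code was tested on simulated data in which every group had the same SD per gene, taken from the treated arrays. The wider spread of the members in MC was thus not part of that test. All members could be named, and for each comparison the 3 called members with the largest difference, or the largest where none was called, are. Of each other list up to 4 called genes, or else the largest difference, are named. Labels call the replicates biological. With 3 arrays a group, their number limits the precision, and the labels do not say whether array numbers tie samples across groups. Python 3.11.15 with numpy 2.4.6, pandas 2.3.3 and matplotlib 3.10.9 was used for the rest. Alternatives were the prior variance, a replicate block, 2-group fits, a filter on dim genes, 2 scalings, array weights, the mean of all probe sets, no fold limit, leaving out each array, MC 1 as the only control and, added after the data were seen, the 12 treated arrays alone.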

Additional observations from a re-analysis of the deposited data

How the results depend on the processing

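The call rule gave 7 members higher with CAS, 4 in both the SBM and the YMW comparison and 1 with SDPP when only the arrays of the 2 groups compared were fitted, beside 1.17%, 0.659%, 1.03% and 0.547% of all genes for CAS, SBM, YMW and SDPP. Array weights (0.193 for MC 1, 21.1 for MC 2 and 0.504 for MC 3, from an estimate that stopped before it converged) gave 28 for SDPP and 29 for YMW (2.87% and 4.01% of all genes), and at an adjusted p under 0.05 they gave 38 in the CAS, the SBM and the SDPP comparison, 37 in the YMW comparison and 38 for the mean of the 4 sources, in fits that called 40%, 39.6%, 33.9%, 38% and 56.7% of all genes in either direction. With no limit on the fold change 28 members were higher for YMW and 35 for the mean (9.93% and 11% of all genes). The 1 member at an adjusted p under 0.05 in the mean became 0 with 1 prior variance for all genes and 0 with the replicate block, 6 among genes above background, 4 after a second quantile normalization and 3 with arrays centred on their median (1.23%, 0.0319%, 5.6%, 2.02% and 2.53% of all genes tested, in that order, against 1.52% as reported). The block moved no other count of calls by over 1.5 times. Same-numbered arrays deviated together with a median r of -0.077 over 30 pairs (range -0.592 to 0.446, 9 over 0.1), and 2 of 15 arrays correlated best with their own number, so the numbers were not taken to pair the samples. Leaving out 1 array at a time, the members called higher ranged over 1 to 36 with CAS, 0 to 36 in the SBM comparison, 0 to 35 in the SDPP comparison, 1 to 34 with YMW and 0 to 35 for the mean, those at an adjusted p under 0.05 over 0 to 37, 0 to 37, 0 to 37, 0 to 36 and 0 to 38, and the medians over 0.35 to 1.04, 0.34 to 1.03, 0.27 to 0.96, 0.27 to 0.95 and 0.30 to 1.01, in that order. The lowest medians were without MC 3 and the highest without MC 1. Counts in the 6 pairs of sources were 0 under all alternatives run. The means of all probe sets moved no count by over 1.5 times.

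The sign turned in 2 members without MC 3, Bub3 (-0.0035) and Ect2 (-0.0027), in the mean of the 4 sources (without MC 1 Ect2 had 0.68), and in most with MC 1 as the only control, where 0 members were called and 0 were at an adjusted p under 0.05. With MC 1 alone the log2 difference for CAS had a median of -0.12, and those turned among the named were Cenpf -0.13 and Bub1 -0.074. With MC 1 alone the log2 difference for SBM had a median of -0.15, and those turned among the named were Bub1 -0.17 and Cenpf -0.27. With MC 1 alone the log2 difference for SDPP had a median of -0.20, and those turned among the named were Cenpf -0.23, Bub1b -0.077 and Hmmr -0.20. With MC 1 alone the log2 difference for YMW had a median of -0.17, and those turned among the named were Bub1 -0.015 and Racgap1 -0.019. With MC 1 alone the log2 difference for the mean of the 4 sources had a median of -0.15, and those turned among the named were Aurka -0.060, Birc5 -0.24, Bub1 -0.13, Bub1b -0.074, Bub3 -0.29, Ccna2 -0.11, Cdc20 -0.0012, Cdc25c -0.031, Cdk1 -0.18, Cdca8 -0.18, Cenpa -0.10, Cenpe -0.25, Cenpf -0.23, Dlgap5 -0.12, Ect2 -0.39, Hmmr -0.21, Incenp -0.12, Knstrn -0.20, Mad2l1 -0.12, Mki67 -0.22, Ncapg -0.13, Ncaph -0.18, Nek2 -0.24, Nuf2 -0.11, Ndc80 -0.14, Plk1 -0.22, Prc1 -0.28, Racgap1 -0.049, Spc25 -0.25, Top2a -0.16, Tpx2 -0.24, Ttk -0.28, Anln -0.21 and Cdkn3 -0.12. The cause of these changes was not tested, other than that each setting holds fewer or other MC arrays.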
